A study of Mus musculus with 4 samples.

Results

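The genes described here are those of MHC class I antigen presentation and of the interferon response, 35 genes in all. They were chosen by name and read through every probe set that the array annotation gives to them. Of the 35, 34 had a probe set of their own and these took 61 of the 45101 probe sets on the array, against 18193 genes with a probe set in all. Isg15, a ubiquitin-like interferon-induced protein, shared its probe set with Gm9706 and was therefore given no value. The list was divided into 11 antigen processing genes and 24 interferon-induced genes. RNA of 4 mouse cell populations was hybridised to Affymetrix arrays with 1 array for each population. They were neural stem cells induced by 14 factors (iNSC_14F) or by 13 factors (iNSC_13F), primary-derived neural stem cells (NSC) and embryonic fibroblasts (MEF). The induced cells and NSC shared a serum-free N2 medium with EGF, bFGF and laminin, while no label describes the culture of MEF. The title of the series names liver cells and B lymphocytes of adult mice, but the labels give neither the starting cell of each induced sample, nor its factors, nor a strain, age or treatment with interferon.

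MHC class I molecules carry peptides from inside the cell to its surface, where T cells read them. The proteasome cuts the peptides, the TAP transporter brings them into the endoplasmic reticulum, and tapasin loads them onto a heavy chain held by beta-2-microglobulin. Interferons bind surface receptors, whose Janus kinases activate STAT and IRF transcription factors, and these switch on antiviral genes as well as many genes of the class I pathway. Stem cells of several tissues are known to keep some antiviral genes on without added interferon.

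With 1 array a population, no difference below has a replicate check, no SD or p-value is given, and the number of arrays limits the precision. Values are MAS5 signals, which are linear and scaled to the same trimmed mean on each array. A signal was read as measured above a floor of 103.91, set from 86 probe sets of odorant, vomeronasal and taste receptors. Where 1 array of a pair did not exceed this floor the fold is written "at least", and genes below it on both arrays of a pair have no fold. Differences of 2-fold or more were counted if the higher signal exceeded the floor. As a yardstick, 95% of 9330 genes above the floor on both induced arrays differed by less than 2.32-fold between them, and 8.75% by 2-fold or more. On NSC the hybridization controls, spiked-in bacterial and phage transcripts, were 1.82-fold, 2.11-fold and 1.83-fold lower than on iNSC_14F, iNSC_13F and MEF. Scaling to them lowers log2 differences of iNSC_14F and iNSC_13F from NSC by 0.86 and 1.08 and raises those of NSC from MEF by 0.87, where both arrays are above the floor. Differences set by the floor move less or not at all. The median of all genes went with this shift, to -0.44, -0.65 and 0.78 from 0.33, 0.30 and -0.01.

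The cell labels were compared with marker genes. Of 8 fibroblast markers, 2 were above the floor on iNSC_14F, 3 on iNSC_13F, 0 on NSC and 7 on MEF. Neural stem cell markers were above it for 6 of 7 on each of the neural arrays and for 3 on MEF. Of 11 leukocyte and microglia markers 8 were below the floor on every array, among them Ptprc, Tyrobp and C1qa, which define these cells. The other 3 (Csf1r, Laptm5 and Cd68) reached at most 260.7. Summed signals of the 11 were 592.5 on iNSC_14F, 633.6 on iNSC_13F, 217.6 on NSC and 861.9 on MEF. The sums include signals below the floor, so they do not measure the content of these cells. Summed signals of the hepatocyte markers, all below the floor, were likewise lowest on NSC, at 258.8, 269, 102.5 and 235.6 in the same order. Leukocytes and microglia express class I and interferon-induced genes strongly, and their part in the results was not tested. Of 7 B lymphocyte markers only Ighm was above the floor, and of 7 hepatocyte markers 0 were.

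Of the 34 genes, 21 exceeded the floor on 1 or more arrays and 13 on none. Counted by array, 13 were above it on iNSC_14F, 14 on iNSC_13F, 16 on NSC and 19 on MEF, and 10 were above it on all 4. The 13 below it everywhere included many of the genes most used to show an interferon response. They were Nlrc5, the transactivator of class I genes, Psmb8, Stat2, Irf7, Igtp, Gbp2, Ifih1, Ifit1, Ifit3, Oas1a, Oasl2, Rsad2 and Usp18. For Stat2 and Rsad2 a dimmer probe set was above the floor on a single array, with 109.7 for Stat2 on iNSC_14F and 168.3 for Rsad2 on NSC. All 5 measured interferon genes (Ifna1, Ifna2, Ifna4, Ifnb1 and Ifng) were also below the floor on all 4 arrays.

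**Figure D1:**
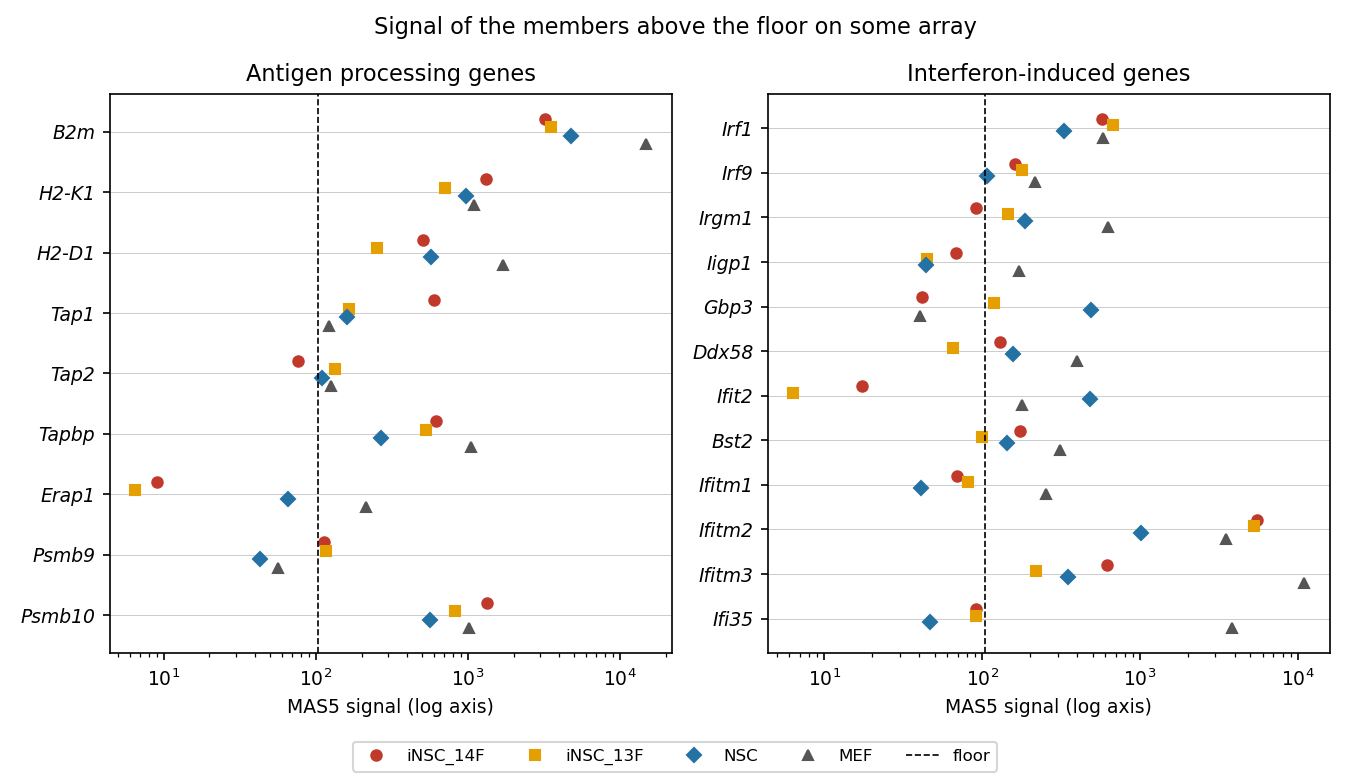
MAS5 signal (log axis) of the 21 member genes that passed the floor on 1 or more arrays, with 1 point for each of iNSC_14F, iNSC_13F, NSC and MEF and the floor of 103.91 as a dashed line. B2m, Ifitm3 and Ifi35 were far higher on MEF than on the 3 neural arrays, while Ifitm2 was lowest on NSC.

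The promoters of the members were read first for the letters that interferon-activated factors bind. RefSeq promoter windows of GRCm38.p6, from 250 bases before to 50 bases after each start, were matched by symbol to 31 of the 35 members. The core of the interferon-stimulated response element, GAAA repeated after any 2 bases and read on either strand, stood in the windows of 17 of the 31, against 3.99% of 27025 genes in the table. It stood in 15 of 22 interferon-induced genes and in 2 of 9 antigen processing genes (B2m and Erap1). Among members above the floor on some array 8 of 19 held it, and among those below it on all arrays 8 of 11. The gamma-activated site TTCNNNGAA, which reads the same on both strands, stood in 8 of 31, against 9.55% of genes. In 4 members both were found, and in 2 of these they shared bases. A match is a description of the letters and does not show that a factor bound there.

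The windows of B2m and of the neighbours Ifitm2 and Ifitm3 are shown because these genes were well above the floor on all 4 arrays and differed by over 2-fold between some of them. Capitals mark the response element core.
B2m, chr2:122147437-122147736, plus strand: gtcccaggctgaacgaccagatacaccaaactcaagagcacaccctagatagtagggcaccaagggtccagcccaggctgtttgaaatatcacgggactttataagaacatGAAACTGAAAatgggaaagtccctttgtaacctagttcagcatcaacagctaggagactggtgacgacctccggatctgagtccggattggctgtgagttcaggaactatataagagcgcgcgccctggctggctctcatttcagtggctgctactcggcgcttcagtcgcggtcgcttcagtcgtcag
Ifitm2, chr7:140955912-140956211, minus strand: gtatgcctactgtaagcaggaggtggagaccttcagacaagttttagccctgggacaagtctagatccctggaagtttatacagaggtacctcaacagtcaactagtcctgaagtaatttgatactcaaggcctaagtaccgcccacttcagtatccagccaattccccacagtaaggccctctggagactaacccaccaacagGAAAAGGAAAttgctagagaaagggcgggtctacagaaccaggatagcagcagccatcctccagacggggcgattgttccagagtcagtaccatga
Ifitm3, chr7:141010695-141010994, minus strand: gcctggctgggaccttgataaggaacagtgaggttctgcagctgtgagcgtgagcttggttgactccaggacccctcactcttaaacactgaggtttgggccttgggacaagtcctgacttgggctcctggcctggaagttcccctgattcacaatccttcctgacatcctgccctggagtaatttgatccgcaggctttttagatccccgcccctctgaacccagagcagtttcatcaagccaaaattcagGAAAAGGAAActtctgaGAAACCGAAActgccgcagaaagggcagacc
B2m and Ifitm2 each held the core once before the annotated start, and Ifitm3 held it 2 times just after it.

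Of the class I chain genes, B2m and H2-D1 were lower in the neural cells than in fibroblasts. B2m, the light chain shared by all class I molecules, had signals of 3203 on iNSC_14F, 3508 on iNSC_13F, 4727 on NSC and 14853 on MEF. It was thus 4.64-fold, 4.23-fold and 3.14-fold lower on the neural arrays than on MEF, and the 3 neural arrays lay within 1.48-fold of each other. Its other probe set, with 3228, 2485 and 4054 on the neural arrays and 10722 on MEF, had the same direction. The heavy chain gene H2-D1 had 511 on iNSC_14F, 253 on iNSC_13F, 575 on NSC and 1690 on MEF. MEF was again the highest, and iNSC_13F was the lowest, 2.28-fold below NSC and 6.69-fold below MEF. H2-K1, the other classical heavy chain gene measured, had 1321 on iNSC_14F, 711 on iNSC_13F, 971 on NSC and 1104 on MEF, all within 1.86-fold.

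The probe sets of the heavy chains disagreed on the size of the step from MEF. Another probe set of H2-K1 gave 368 on iNSC_14F, 186 on iNSC_13F and 426 on NSC, against 1478 on MEF, so that by it all 3 neural arrays were well below MEF. Of 9 probe sets of H2-D1, 4 were above the floor on some array and all 4 were lower on the neural arrays than on MEF. Its single probe set above the floor without the suffix _x_at, which marks probes shared with other sequences, was 110 on MEF and below the floor elsewhere. With the suffixes _s_at and _x_at left out, the log2 difference of H2-D1 from MEF was -0.08 on each neural array, a bound. Class I heavy chains are near-identical to one another and differ between mouse strains, so signals of H2-K1 and H2-D1 cannot be fully told apart here, and the part of strain was not tested. All 3 probe sets of H2-K1 and all 3 of H2-D1 that were measured between the induced arrays were higher on iNSC_14F than on iNSC_13F. For the brightest of each gene the fold was 1.86 and 2.02.

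**Figure D2:**
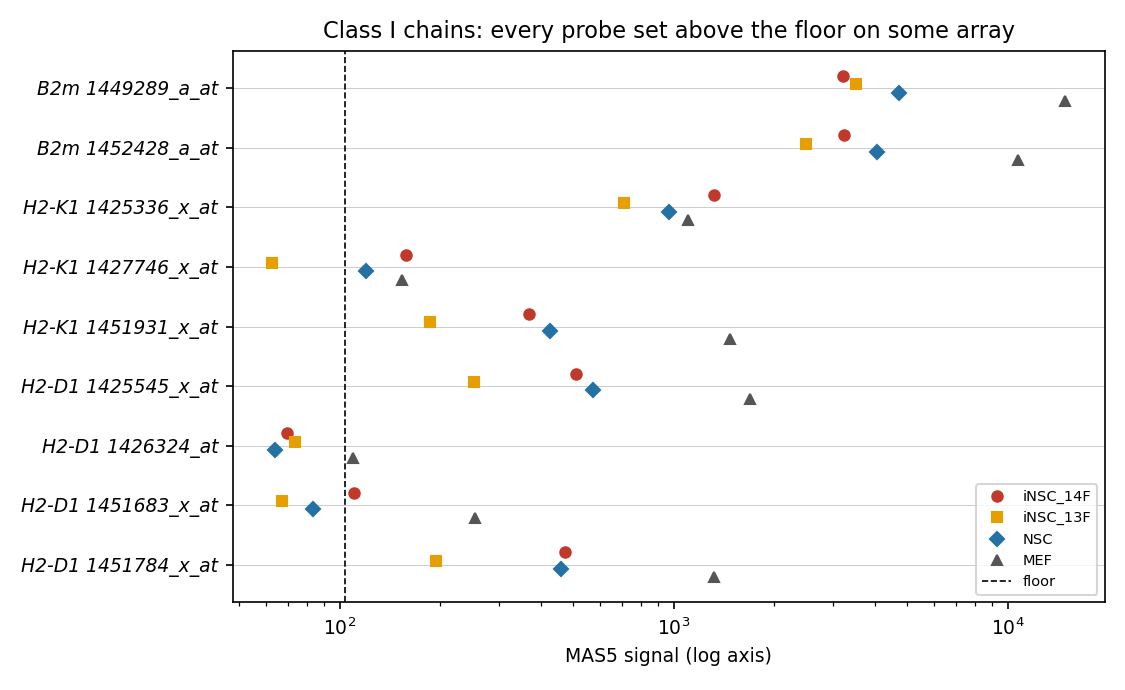
MAS5 signal (log axis) of every B2m, H2-K1 and H2-D1 probe set that passed the floor on 1 or more arrays, by array, with the floor as a dashed line. Both B2m probe sets put MEF highest, whereas the H2-K1 probe sets differ in where they put MEF, and iNSC_13F is below iNSC_14F in all but the H2-D1 probe set at the floor and 1 of B2m.

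The promoter windows of H2-K1 and H2-D1 are shown because these genes share an NF-kB element known as enhancer A, whose letters are in capitals. Searched on both strands, it was found in 9 of 27025 genes of the table, and H2-K1 and H2-D1 were the 2 among the members.
H2-K1, chr17:34000298-34000597, minus strand: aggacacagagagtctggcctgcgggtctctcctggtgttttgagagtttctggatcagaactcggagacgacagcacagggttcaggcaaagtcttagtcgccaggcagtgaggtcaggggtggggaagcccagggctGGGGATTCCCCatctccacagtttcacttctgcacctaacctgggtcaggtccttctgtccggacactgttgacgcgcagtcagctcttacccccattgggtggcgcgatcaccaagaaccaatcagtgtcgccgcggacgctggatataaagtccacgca
H2-D1, chr17:35262844-35263143, plus strand: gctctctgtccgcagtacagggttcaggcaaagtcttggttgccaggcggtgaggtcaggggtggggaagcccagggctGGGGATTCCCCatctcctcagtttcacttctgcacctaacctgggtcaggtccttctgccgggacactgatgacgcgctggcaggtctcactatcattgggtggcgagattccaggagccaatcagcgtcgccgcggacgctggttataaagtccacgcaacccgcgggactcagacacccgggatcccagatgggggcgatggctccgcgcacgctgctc
Set side by side on this element without gaps, 176 of 240 bases were the same, or 73.3%.

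Of the transport and loading genes, Tap1 was highest on iNSC_14F and the others were not. Tap1, a subunit of the peptide transporter, had signals of 596 on iNSC_14F, 165 on iNSC_13F, 161 on NSC and 121 on MEF. The other 3 arrays were within 1.36-fold of each other, and iNSC_14F was above them by 3.61-fold, 3.70-fold and 4.91-fold. This was past the 2.32-fold yardstick between the induced arrays, although the other 3 probe sets of Tap1 were below the floor on all arrays. Tap2, its partner subunit, did not follow, with 76.0 on iNSC_14F, 135 on iNSC_13F, 110 on NSC and 125 on MEF. Tapbp, which encodes tapasin, had 617 on iNSC_14F, 534 on iNSC_13F, 269 on NSC and 1051 on MEF. It was 2.29-fold and 1.98-fold higher on the induced arrays than on NSC, and 3.91-fold lower on NSC than on MEF. Its other probe set was above the floor on iNSC_13F alone, at 115. Erap1, the peptidase that trims peptides in the endoplasmic reticulum, had 9.02 on iNSC_14F, 6.53 on iNSC_13F, 66.2 on NSC and 216 on MEF. It was above the floor on MEF alone and so at least 2.07-fold lower on each neural array.

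The immunoproteasome subunits replace constitutive ones when interferon is present. Psmb10 had signals of 1333 on iNSC_14F, 827 on iNSC_13F, 566 on NSC and 1021 on MEF. It was 2.36-fold higher on iNSC_14F than on NSC, and 1.61-fold higher than on iNSC_13F. Psmb9 lay close to the floor on the induced arrays, at 113 on iNSC_14F and 118 on iNSC_13F, and below it at 42.8 on NSC and 56.3 on MEF. Psmb8 was below the floor on every array. The constitutive counterparts Psmb5, Psmb6 and Psmb7 were above it on all 4, within 1.62-fold between each induced array and NSC. Psmb7 was 2.15-fold higher on iNSC_14F than on MEF.

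Tap1 and Psmb9 are divergent neighbours. Their promoter windows overlap by 275 bases on opposite strands, which are in capitals in the window of Tap1, shown because the signals of these genes differed between the induced arrays by 3.61-fold for Tap1 and 1.04-fold for Psmb9.
Tap1, chr17:34187306-34187605, plus strand: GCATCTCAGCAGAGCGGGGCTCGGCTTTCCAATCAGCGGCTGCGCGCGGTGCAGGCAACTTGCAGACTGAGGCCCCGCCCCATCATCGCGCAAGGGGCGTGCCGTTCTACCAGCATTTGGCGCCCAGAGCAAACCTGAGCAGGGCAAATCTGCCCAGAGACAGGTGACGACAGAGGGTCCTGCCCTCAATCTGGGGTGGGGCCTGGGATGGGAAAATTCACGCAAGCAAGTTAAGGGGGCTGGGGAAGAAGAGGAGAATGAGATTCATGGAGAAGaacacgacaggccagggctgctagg
Neither the response element core, nor the gamma-activated site, nor enhancer A was found in it.

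Among the members that encode transcription factors of the interferon response, Irf1 had the highest signals. It had signals of 573 on iNSC_14F, 670 on iNSC_13F, 329 on NSC and 584 on MEF. NSC was the lowest, by 1.74-fold, 2.04-fold and 1.77-fold against the other arrays. When scaled to the hybridization controls the log2 difference of iNSC_13F from NSC was -0.05, against 1.03. Irf9, which joins STAT proteins in the factor that binds the response element, had 162 on iNSC_14F, 179 on iNSC_13F, 107 on NSC and 216 on MEF, and it was 2.02-fold lower on NSC than on MEF. It was close to the floor throughout.

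The interferon-induced GTPases, which attack membranes around intracellular microbes, went in different directions. Irgm1 had signals of 90.9 on iNSC_14F, 145 on iNSC_13F, 187 on NSC and 629 on MEF, and it was at least 6.06-fold, 4.33-fold and 3.37-fold lower on the neural arrays than on MEF. Gbp3 had 41.5 on iNSC_14F, 119 on iNSC_13F, 492 on NSC and 40.0 on MEF. NSC stood alone above the others, and Gbp3 was at least 4.73-fold and 4.14-fold lower on the induced arrays than on NSC. Iigp1 was above the floor on MEF alone, at 172. Gbp7, a member of the same family outside the 35, was also highest on NSC, the single array where it was above the floor, with 5.76 on iNSC_14F, 78.5 on iNSC_13F, 746 on NSC and 73.8 on MEF, and both of its probe sets agree on the direction.

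Ifit2, whose protein binds viral RNA, also marked NSC. It had signals of 17.2 on iNSC_14F, 6.36 on iNSC_13F, 479 on NSC and 179 on MEF. It was at least 4.61-fold lower on both induced arrays than on NSC, and 2.68-fold higher on NSC than on MEF. Its neighbours Ifit1 and Ifit3 were below the floor on all 4 arrays. The viral RNA sensor gene Ddx58, which encodes RIG-I, had 129 on iNSC_14F, 65.6 on iNSC_13F, 156 on NSC and 401 on MEF. It was 3.11-fold, at least 3.86-fold and 2.58-fold lower on the neural arrays than on MEF.

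The membrane proteins that block virus entry or release differed among themselves in size and direction. Ifitm3 had signals of 617 on iNSC_14F, 217 on iNSC_13F, 351 on NSC and 10962 on MEF. It was 17.8-fold, 50.4-fold and 31.2-fold lower on the neural arrays than on MEF, and 2.84-fold higher on iNSC_14F than on iNSC_13F. Ifitm2 had 5470 on iNSC_14F, 5245 on iNSC_13F, 1017 on NSC and 3479 on MEF. The induced arrays were within 1.04-fold of each other, 5.38-fold and 5.16-fold above NSC and 1.57-fold and 1.51-fold above MEF. With scaling to the hybridization controls the log2 differences from NSC were 1.57 and 1.29, against 2.43 and 2.37. Ifitm1 was above the floor on MEF alone, at 253. Bst2, which tethers budding viruses to the cell, had 174 on iNSC_14F, 100.0 on iNSC_13F, 144 on NSC and 311 on MEF. Of the neighbours on chromosome 7, Ifitm3 was thus far below MEF on the induced arrays and Ifitm2 was not.

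Ifi35, an interferon-induced leucine zipper protein, was by its brightest probe set above the floor on MEF alone. It had signals of 91.7 on iNSC_14F, 91.4 on iNSC_13F, 46.7 on NSC and 3799 on MEF, and was at least 36.6-fold lower on each neural array than on MEF. All 3 of its probe sets had this direction, but the size rests on this probe set. The log2 difference from MEF was -5.19 by it on each neural array, -2.29 with the median of the probe sets and -2.21 without the suffixes _s_at and _x_at, all of them bounds. Another of them had 135 on iNSC_14F, 95.5 on iNSC_13F, 68.0 on NSC and 509 on MEF.

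**Figure D3:**
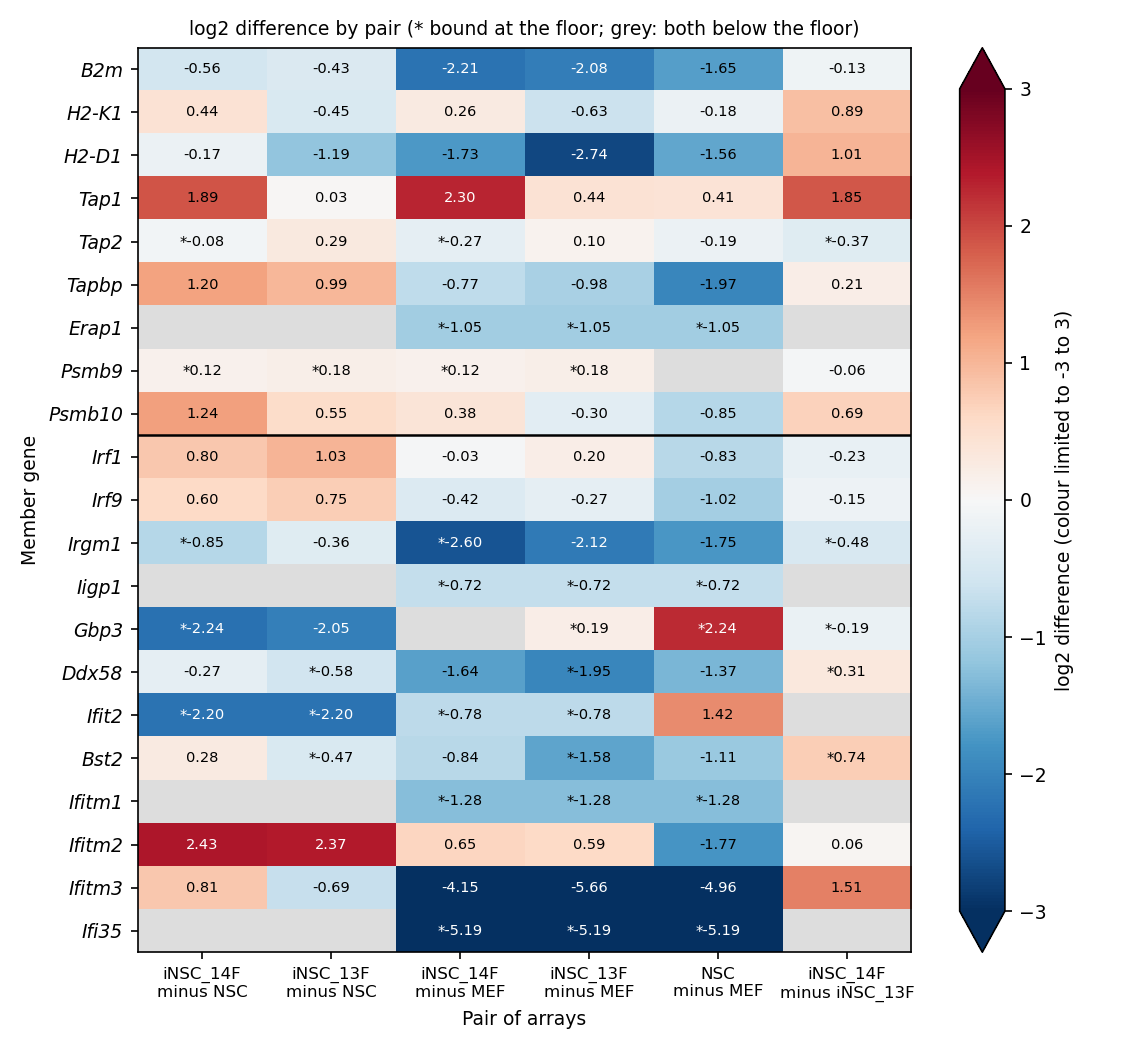
log2 difference of each of the 21 members (rows) in each of the 6 pairs of arrays (columns), with red for higher and blue for lower in the population named first. An asterisk marks a bound set by the floor and grey a pair with both arrays below it. The 3 columns against MEF are mostly blue, with Tap1 on iNSC_14F and Gbp3 and Ifit2 on NSC as the red cells of at least 2-fold.

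Counts over the lists were read beside the same counts over all genes. A member above the floor on 1 array of a pair alone can only be higher there, so these counts describe the lists and do not support a direction. Against MEF, 3 of 9 measured antigen processing genes were at least 2-fold lower on iNSC_14F and 1 was higher, and of 11 interferon-induced genes 5 were lower and 0 higher. The background on iNSC_14F was 18.6% lower and 18.1% higher of 11521 genes, or 36.7% either way. On iNSC_13F the counts were 3 of 9 lower and 0 higher, and 6 of 12 lower and 0 higher, with a background of 20.5% lower and 15.7% higher (36.2% either way). On NSC they were 4 of 8 lower and 0 higher, and 8 of 12 lower and 2 higher, with a background of 17.2% lower and 19.6% higher (36.9% either way). Scaling to the hybridization controls ended the 2-fold difference of NSC from MEF for 8 of these 14 members (B2m, H2-D1, Erap1, Irf9, Irgm1, Ddx58, Bst2 and Ifitm2), and for 0 of those of the induced arrays from MEF. The median log2 differences from MEF of the interferon-induced genes were -0.84 on iNSC_14F, -1.03 on iNSC_13F and -1.20 on NSC, where those of all genes were 0.11, 0.09 and -0.01. Those of the antigen processing genes were -0.27, -0.63 and -0.95. Under the 8 other settings tried, all 6 list medians stayed below the median of all genes, by 0.19 to 1.67. Most of these settings still count members through MEF alone, so they are no separate check of direction. Where both signals of a pair had to pass the floor, the medians lay 0.43 to 1.31 below, over 5 to 8 members each. The interferon-induced median on iNSC_13F was then -0.27, against -1.03. The comparisons with MEF share the MEF array.

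Against NSC the 2-fold counts of the lists had no common direction. On iNSC_14F 3 of 8 antigen processing genes were at least 2-fold higher (Tap1, Psmb10 and Tapbp) and 0 lower, and of 9 interferon-induced genes 1 was higher (Ifitm2) and 2 were lower (Gbp3 and Ifit2). The background was 16.9% higher and 19.1% lower of 10775 genes, or 36.0% either way. With scaling to the hybridization controls Psmb10 and Tapbp were no longer 2-fold apart, at 0.37 and 0.33 on the log2 scale, and Tap1 still was. On iNSC_13F 0 of 8 antigen processing genes were higher and 1 was lower (H2-D1), and of 9 interferon-induced genes 2 were higher (Ifitm2 and Irf1) and 2 were lower (Gbp3 and Ifit2). The background there was 14.9% higher and 20.5% lower (35.4% either way). The list medians were 0.28 for antigen processing and 0.28 for interferon-induced genes on iNSC_14F, beside 0.33 for all genes. On iNSC_13F they were 0.11 and -0.47, beside 0.30. Under the other settings the 2 medians on iNSC_13F stayed below that of all genes, by 0.05 to 0.70 and by 0.18 to 0.86. Those on iNSC_14F lay on both sides of it.

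Between the induced arrays, 2 of 8 antigen processing genes (Tap1 and H2-D1) and 1 of 8 interferon-induced genes (Ifitm3) were at least 2-fold higher on iNSC_14F than on iNSC_13F, and 0 of either list were lower. The background was 5.99% higher and 2.95% lower (8.93% either way). The 2.02-fold of H2-D1 lay inside the 2.32-fold yardstick, and its log2 difference of 1.01 was 0.87 with quantile normalization and 0.97 with a pseudocount in place of the floor, under 2-fold in both. The count of 2 was 0 to 3 under the other settings. The antigen processing list had a median log2 difference of 0.45, beside 0.07 for all genes. This was 0.03 when each gene's probe sets were replaced by their median and 0.08 without the suffixes _s_at and _x_at.

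The 14 members at least 2-fold apart between NSC and MEF were then placed on the induced arrays, where below-floor arrays count as equal. The genes outside the lists were not placed in this way, so the counts have no background share and show no trait of the lists. Of the 12 lower in NSC, 8 were within 2-fold of NSC alone on iNSC_14F and 8 on iNSC_13F, B2m and Ifitm3 among them on both. Erap1, Ifitm1 and Ifi35 are 3 of each 8, and as they were above the floor on MEF alone their place was fixed by the floor. The floor also set the place of Irgm1 on iNSC_14F and of Ddx58 and Bst2 on iNSC_13F, which were below it there. Scaling to the hybridization controls ended the difference that selected 8 of the 14. Ifitm2 was within 2-fold of MEF alone on both, and Tapbp on iNSC_14F. H2-D1 on iNSC_13F lay below both. The 2 higher in NSC, Gbp3 and Ifit2, were placed within 2-fold of MEF on both induced arrays by the floor. Ifit2 had 17.2 on iNSC_14F and 6.36 on iNSC_13F against 179 on MEF, so it was at least 1.72-fold lower on each. Gbp3 did not reach the floor on MEF, at 40.05, nor on iNSC_14F, at 41.48. Neither gene is thereby shown to be like MEF.

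The receptors and kinases that carry the interferon signal were compared next. The receptor genes Ifnar1, Ifnar2, Ifngr1, Ifngr2 and Il10rb were above the floor on every array, and Ifnlr1 was below it on every array. The type I receptor gene Ifnar1 had signals of 1144 on iNSC_14F, 1086 on iNSC_13F, 941 on NSC and 740 on MEF. Ifnar2, Ifngr1 and Ifngr2 were within 1.65-fold between each induced array and NSC, and Ifngr2 was 2.52-fold, 3.17-fold and 3.20-fold lower on the neural arrays than on MEF. Jak1, the kinase used by all interferon receptors, was low on the induced arrays, with 175 on iNSC_14F, 163 on iNSC_13F, 859 on NSC and 1489 on MEF. It was 4.91-fold and 5.28-fold lower than on NSC and 8.51-fold and 9.15-fold lower than on MEF, with all 3 probe sets in that direction. Jak2, used by the interferon gamma receptor, had 199 on iNSC_14F, 161 on iNSC_13F, 1418 on NSC and 667 on MEF. It was 7.13-fold and 8.80-fold lower on the induced arrays than on NSC, with both probe sets in that direction. Tyk2, the third kinase of these receptors, had 543 on iNSC_14F, 505 on iNSC_13F, 276 on NSC and 427 on MEF. Of 13 measured genes of this list, 2 were at least 2-fold lower on iNSC_14F than on NSC (Jak1 and Jak2) and 1 was higher, and on iNSC_13F 2 were lower and 2 higher. Over all genes 19.1% were lower and 16.9% higher on iNSC_14F, and 20.5% lower and 14.9% higher on iNSC_13F, so the count of lower genes was not above the background.

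**Figure D4:**
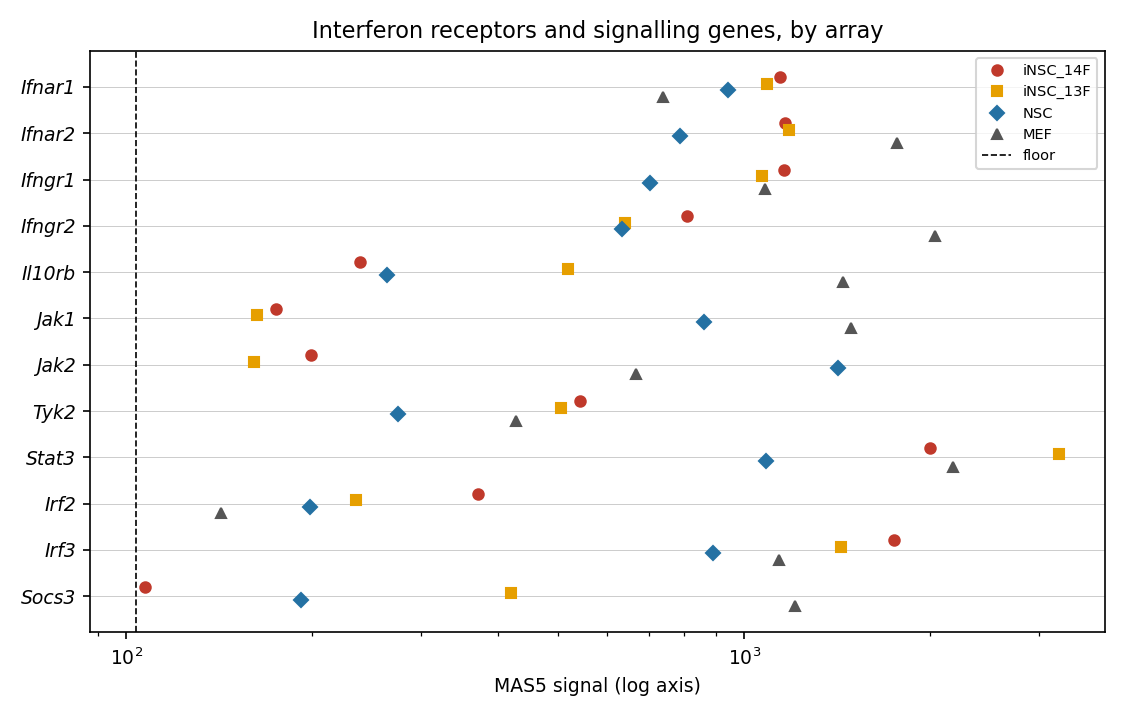
MAS5 signal (log axis) of 12 interferon receptor and signalling genes by array, with the floor as a dashed line. Jak1 and Jak2 are at 161 to 199 on both induced arrays and at 667 to 1489 on NSC and MEF, while Ifnar1 is at 740 to 1144 over all 4.

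Other genes that interferon induces gave a similar spread. Of 40 listed, 36 had a probe set and 16 were above the floor on some array. Against MEF 4 of 13 measured were at least 2-fold lower on iNSC_14F, 4 of 14 on iNSC_13F and 5 of 15 on NSC, and 0, 0 and 2 were higher. Over all genes 18.6%, 20.5% and 17.2% were lower and 18.1%, 15.7% and 19.6% were higher. Here too a gene above the floor on MEF alone can only be lower. Ifi30, a lysosomal thiol reductase, had signals of 280 on iNSC_14F, 256 on iNSC_13F, 123 on NSC and 2860 on MEF. Trim25, which activates RIG-I, had 27.8 on iNSC_14F, 3.61 on iNSC_13F, 116 on NSC and 1155 on MEF. Ifi27, a mitochondrial protein gene, was 5.79-fold and 8.77-fold higher on the induced arrays than on NSC, with 610 on iNSC_14F, 924 on iNSC_13F, 105 on NSC and 1468 on MEF. It had the same order between the induced arrays and NSC as Ifitm2.

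Other genes that work with the class I pathway were compared last. Of the peptide loading and proteasome partners, 11 measured on iNSC_14F and 12 on iNSC_13F, 2 were at least 2-fold lower than on NSC on each induced array, the chaperone gene Canx and the proteasome subunit gene Psma1, and 0 were higher. These shares did not exceed those over all genes, 19.1% and 20.5% lower, where 16.9% and 14.9% were higher. Canx, which encodes calnexin, had signals of 4893 on iNSC_14F, 4078 on iNSC_13F, 13034 on NSC and 11044 on MEF, with 3 of 3 probe sets in that direction. The lipid-presenting class I-like gene Cd1d1 had 1913 on iNSC_14F, 2271 on iNSC_13F, 2001 on NSC and 556 on MEF, and it was 3.44-fold, 4.09-fold and 3.60-fold higher on the neural arrays. Cd1d1 was thus lowest on MEF, where B2m, its light chain, was highest.

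**Figure D5:**
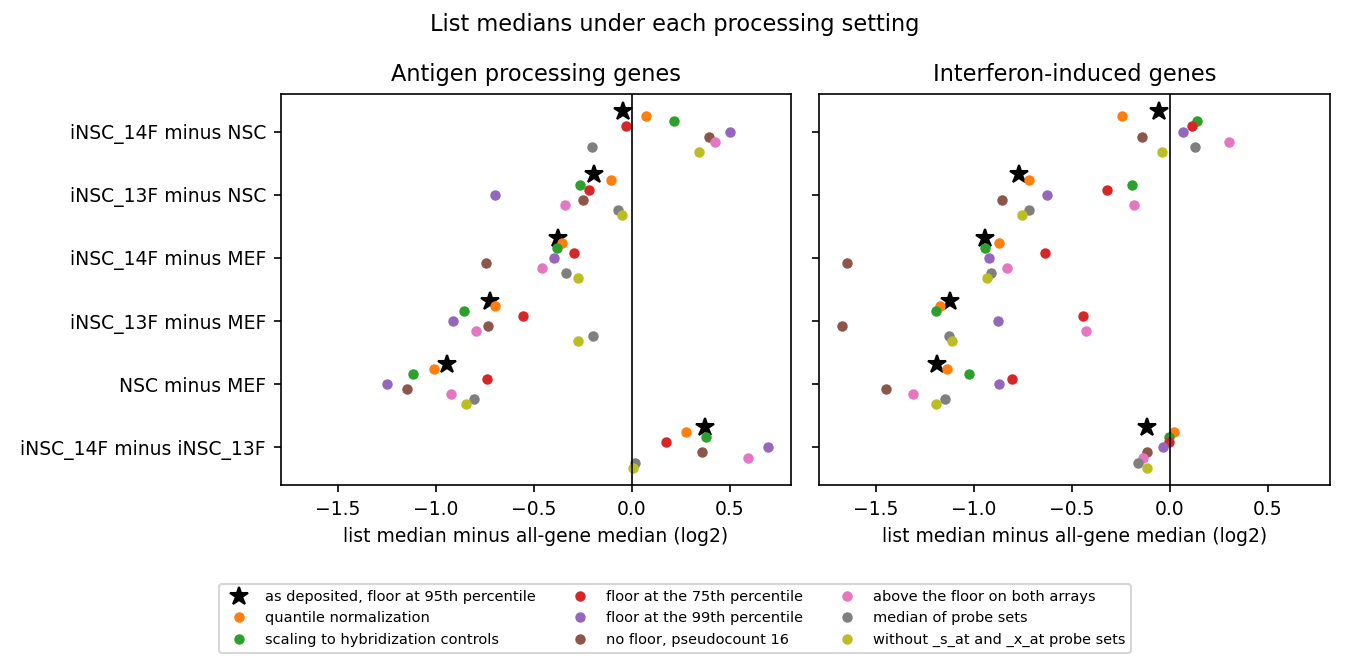
Median log2 difference of each list minus that of all genes, for each pair of arrays (rows) and each processing setting (points), with the star as reported. Both lists are below all genes in every pair with MEF, by 0.19 to 1.67, though most settings count members through MEF alone. Both lists are also below all genes for iNSC_13F minus NSC, by 0.05 to 0.86, and lie near or on both sides of 0 for iNSC_14F minus NSC.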

How the data were processed

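Total RNA of 4 samples was labelled with biotin and hybridised to Affymetrix mouse arrays, per the labels' protocols, and samples were grouped by their cell type label. The source label calls all 4 embryonic stem cells, and was not used because the cell type label says otherwise. The deposited values are intensities, 1 linear signal for each probe set, made by the authors with MAS5, per the submitters' processing notes, whose version no source used here gives. The 2% trimmed mean was 500 on each array, so no further scaling was applied.

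Genes of probe sets came from the platform annotation and, by ID, RefSeq names of GRCm38.p6. Of 45101 probe sets, 64 were controls, 34945 had 1 gene, 34741 of them matched by ID, 932 had several genes and 9160 had none. Each gene was read from the probe set with the highest mean log2 signal. The floor was the 95th percentile of 86 receptor probe sets, the highest of 4 arrays, and signals below it were set to it before log2 was taken. No test was run, since 1 array a group leaves no residual degrees of freedom. Named genes were all 35 members, up to 4 of each other list and a fixed set of receptors, kinases and proteasome subunits. Members and lists were chosen with earlier results of these data known. The 2-fold rule was checked on simulated signals. Alternatives were quantile normalization, scaling to 9 hybridization controls, floors at the 75th and at the 99th percentile, a pseudocount of 16 in place of the floor, only genes with both arrays above the floor, the median of probe sets, leaving out probe sets ending in _s_at or _x_at, and a threshold of 4-fold. Analyses used Python 3.11.15, pandas 2.3.3 and numpy 2.4.6.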

Additional observations from a re-analysis of the deposited data

How the results depend on the processing

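Over the 8 alternatives 89 of 96 list medians moved by less than 0.59, the SD of log2 differences between the induced arrays. With scaling to hybridization controls the antigen processing median of iNSC_13F minus NSC was -0.91, that of NSC minus MEF -0.33, and the interferon-induced median of NSC minus MEF -0.24, as the scaling shifts the NSC array. Irf1 in iNSC_13F minus NSC became -0.0504. The interferon-induced median of iNSC_13F minus NSC was 0.19 over genes with both arrays above the floor. That of iNSC_13F minus MEF was -0.27 over such genes and -0.36 with a floor at the 75th percentile, settings that change which genes are counted. That of iNSC_14F minus MEF was -1.525 with no floor. Of 784 recomputed differences of single members, 659 moved by less than 0.59, 124 moved by more and 1 turned.

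Counts of members at least 2-fold apart changed with the setting. Antigen processing genes lower than in MEF were 1 to 3, against 3, in iNSC_14F, 2 to 4, against 3, in iNSC_13F and 1 to 5, against 4, in NSC. For interferon-induced genes these were 2 to 7, against 5, then 2 to 8, against 6, and 3 to 9, against 8. Higher than in NSC were 1 to 4 antigen processing genes, against 3, in iNSC_14F, and higher than in iNSC_13F were 0 to 3, against 2. At 4-fold the interferon-induced counts below MEF were 3, 3 and 2, and the antigen processing counts 1, 2 and 0. No paired analysis was possible because each group has 1 array, which also leaves no replicate to leave out. Signals near the floor limit 11 of the 21 members above it, which were not above it on all arrays.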

Other observations

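NF-kB factors and their targets share inducers with the class I genes. In NSC 8 of 9 measured members were at least 2-fold lower than in MEF and 0 were at least 2-fold higher. The background was 17.2% lower and 19.6% higher. The ninth, Nfkb2, had 152 on NSC and 96.3 on MEF, which is below the floor. Its other measured probe set went the other way, with a log2 difference of -1.33. Of the 9 differences 5 are bounds, and a gene above the floor on MEF alone can only be lower. The log2 differences of Nfkbia and Rela, -1.05 and -1.01, are at least 2-fold only without the shift of 0.87 that scaling to the hybridization controls gives, and Relb, at -1.29 and below the floor on NSC, was not recomputed. Vcam1, an adhesion molecule gene, had signals of 390 on NSC and 1432 on MEF, and the chemokine gene Ccl2 had 49.3 on NSC and 1062 on MEF. Ccl2 differed between the induced arrays, at 104.4 on iNSC_14F and 305 on iNSC_13F. The NF-kB inhibitor gene Nfkbia had 8296 on iNSC_14F, 5945 on iNSC_13F, 3283 on NSC and 6818 on MEF, and all 5 of its probe sets were higher on both induced arrays than on NSC. By the brightest, the log2 differences from NSC were 1.34 on iNSC_14F and 0.86 on iNSC_13F. Scaling to the hybridization controls shifts such differences by -0.86 and -1.08, so on iNSC_13F the shift is larger than this difference.

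Tbk1, a kinase that activates Irf3 after RNA or DNA sensing, had signals of 862 on iNSC_14F, 704 on iNSC_13F, 1970 on NSC and 1660 on MEF, and was 2.29-fold and 2.80-fold lower on the induced arrays than on NSC. Mavs, the adaptor of RIG-I, had 796 on iNSC_14F, 1175 on iNSC_13F, 731 on NSC and 790 on MEF. Socs3, a feedback inhibitor of Janus kinases, had 107 on iNSC_14F, 420 on iNSC_13F, 192 on NSC and 1205 on MEF. It was 3.92-fold lower on iNSC_14F, where it was close to the floor, than on iNSC_13F. The log2 difference was -1.97 by this probe set and -0.98 by the other measured one. Pml, a nuclear body gene induced by interferon, was 3.78-fold higher on iNSC_14F than on iNSC_13F, with signals of 469 on iNSC_14F and 124 on iNSC_13F. By its other measured probe set the log2 difference was 0.48, against 1.92. Class II genes were near the floor: H2-DMa had the highest signals, 235 on iNSC_14F, 198 on iNSC_13F, 149 on NSC and 56.3 on MEF.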
